A study of Mus musculus with 2 samples.

Results

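The Rab GTPases of the mouse hippocampus were described from long-read RNA sequencing. Members were the protein-coding genes whose symbol is Rab, a number and at most 1 further letter. GENCODE M21 holds 59 such genes, of which 55 had at least 1 read and 51 had reads in both libraries, out of 18595 annotated genes with a read. Hippocampus of adult C57BL/6 mice (strain B6NCrl), 6 months old and described as male, was sequenced in 2 libraries of 1 group, with no second condition. The libraries, called replicate 1 and replicate 2, have separate biosamples but 1 donor identifier, and it is not said whether 2 animals were sampled. A difference between them may therefore be technical, and every test below compares the libraries, not conditions.

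Rab proteins are small GTPases that mark the surface of membrane compartments. In the GTP-bound form they recruit effectors such as tethers and motor proteins, and in the GDP-bound form they are taken off membranes by GDP dissociation inhibitors. Exchange factors load GTP and GTPase-activating proteins promote its hydrolysis, and in neurons this cycle serves synaptic vesicle release, endosomal recycling and transport along axons and dendrites.

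Most Rab proteins are held on membranes by prenyl groups attached to cysteines at the end of the protein, so the ends of the coding sequences are shown first, for abundant members of each arrangement found. Each sequence is the last 24 coding bases before the stop codon of the transcript that took most coding reads of the gene, 5′ to 3′, from the GENCODE M21 transcripts, and capitals mark cysteine codons.
Rab6a: gtcaatgaaggcggcTGTtccTGC
Rab3a: ccacctcatcaggatTGTgccTGC
Rab2a: cagcaggcagggggaggcTGCTGT
Rab28: cggagctccatgTGTgcagtgcag
Rab5a: gccagaagccagTGTTGTagtaac
Rab11b: aagctgcagTGCTGCcagagcctg
Rab34: aagaaaaaggccacaTGTTGTccc
The end could be read for 53 members, and 53 of 53 had a cysteine codon (TGT or TGC, read in frame) among the last 5 codons, against 12.6% of 21352 coding genes of the annotation taken at their longest coding sequence. Cysteine codons at the third codon from the end and at the end itself, as in Rab6a and Rab3a, were found in 17 genes, among them all 4 Rab3 genes, Rab7, Rab14 and Rab15. Cysteine codons filled the last 2 positions in 15 genes, as in Rab2a. A single cysteine codon 4 positions from the end was found in 9 genes, as in Rab28. Cysteine codons 4 and 3 from the end, as in Rab5a, were found in 5 genes, and 5 and 4 from the end, as in Rab11b, in another 5. Rab34 and Rab20 had them 3 and 2 from the end. Coding length ranged from 582 to 843 bases with a median of 645 bases.

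Replicate 1 held 1330153 reads and replicate 2 held 1366252. Levels are given as CPM, reads per 1000000 reads of the library, and 1 read was worth 0.752 and 0.732 CPM. A long read stands for 1 transcript, so CPM was not divided by length. Errors are SDs over the 2 libraries. They are no measure of counting error, and they lie below it where both libraries gave nearly the same count. Markers of neurons (6 of 6 genes read) summed to 4521 and 5649 CPM in replicates 1 and 2, and hippocampal field markers (10 of 10) to 1294 and 1464 CPM. Of the neuron genes 5 were higher in replicate 2 and 1, Slc17a7 (34.6 and 21.2 CPM), in replicate 1. For the field markers these numbers were 7 and 3. Markers of the choroid plexus, the epithelium next to the hippocampus that makes cerebrospinal fluid, set the libraries apart. That list summed to 14231 CPM in the first library and 393 CPM in the other, and 12 of its 12 genes were higher in replicate 1, and Kcne2, Otx2 and Aqp1 had no read in replicate 2. Oligodendrocyte markers summed to 5181 and 6962 CPM, with 5 genes higher in replicate 2 and 1, Mog (14 and 7 reads), in replicate 1.

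Together the Rab genes took 7367 reads in replicate 1 and 8824 in replicate 2. This was 0.554% of the first library (exact Clopper-Pearson 95% interval 0.541 to 0.567) and 0.646% of the other (0.632 to 0.659), intervals that cover counting error only. Their summed level was 5998.5 ± 651 CPM. Few genes made up most of it: Rab6a alone gave 15.4%, the 3 highest genes 36.6%, the 5 highest 50.5% and the 15 highest 78.2%. A mean of at least 100 CPM was reached by 15 genes and at least 10 CPM by 41. The median over the 55 genes was 48.5 CPM, beside 14.1 CPM over the 15047 protein-coding genes with a read. The order of the levels was close in the 2 libraries (Spearman rho 0.988 over 51 genes, given as a description). Of the 54 neighbouring pairs in that order, 42 had ranges over the libraries that overlapped. Overlap does not settle the order, because both genes of a pair were read in the same 2 libraries. Rab3a was above Rab7 in both libraries although their ranges overlapped, whereas Rab3c was above Rab18 only in replicate 2.

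**Figure D1:**
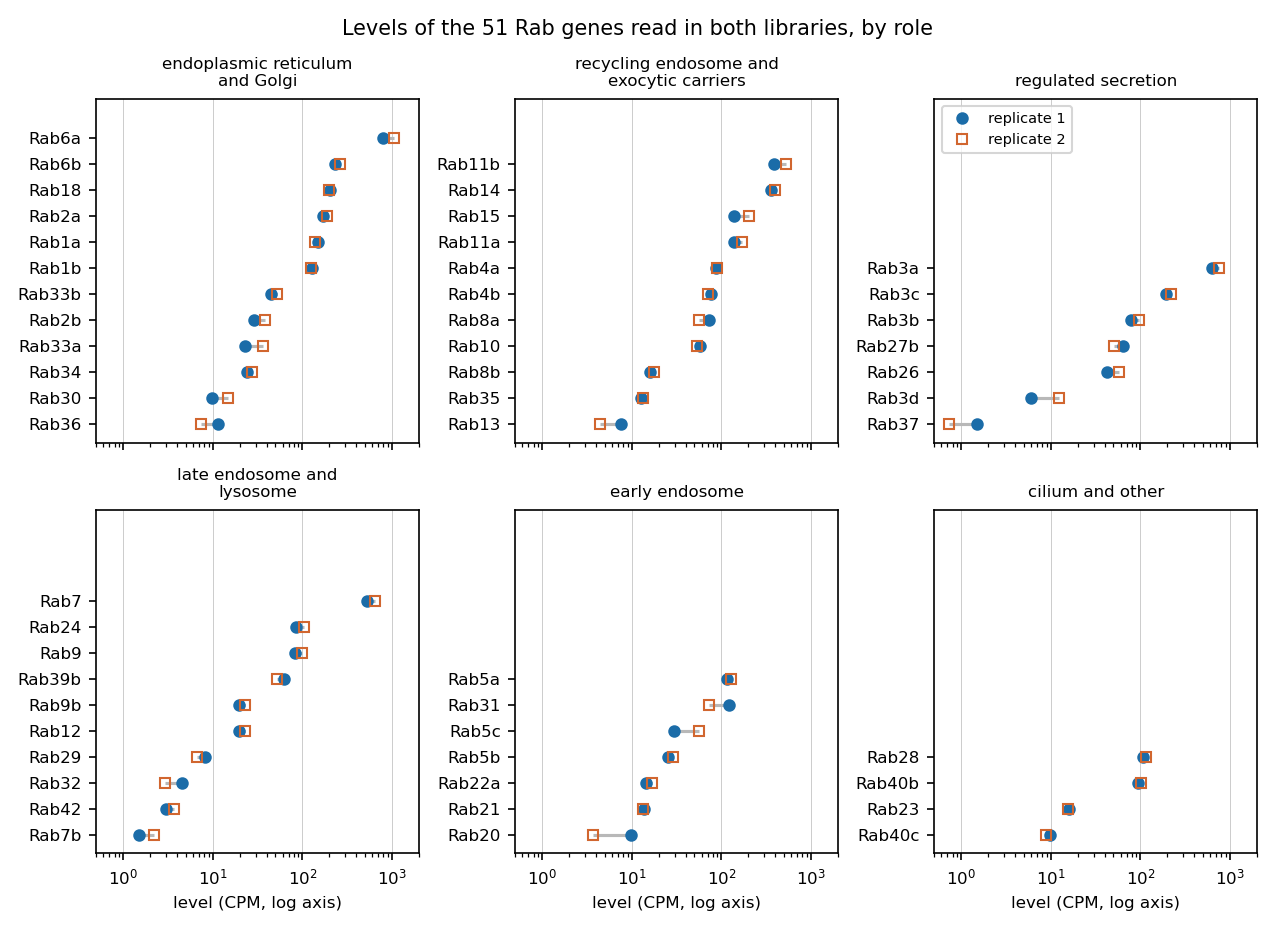
Levels of the 51 Rab genes read in both libraries, in CPM on a log axis and in 6 panels by role; filled circles are replicate 1, open squares replicate 2, and grey lines join them. Rab6a, Rab3a, Rab7 and Rab11b lead 4 of the panels.

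Rab genes of the endoplasmic reticulum and the Golgi apparatus had the highest summed level, 1979.9 ± 246 CPM from 13 genes, or 33.0% of all Rab CPM. Rab6a, which directs traffic from and back to the Golgi, was the highest Rab gene and the 109th of all genes. It had 1042 reads in replicate 1 and 1451 in replicate 2 (783 and 1062 CPM, 923 ± 197 CPM), and its range did not overlap that of the next gene. Its close relative Rab6b, known for its expression in neurons, had 311 and 363 reads (249.7 ± 22.5 CPM). Rab6a stood 3.35 times above Rab6b in replicate 1 and 3.997 times in replicate 2, and the coding sequences of the pair were identical at 78.4% of aligned bases. That ratio depended on reads without an intron: with spliced models only, a setting added after seeing the data, Rab6b was at 123 CPM and Rab6a at 872 CPM, and the ratio was 6.96 and 7.23. Rab18, a protein of the endoplasmic reticulum and of lipid droplets, had 267 and 271 reads (199.5 ± 1.68 CPM). Rab2a, which acts between the endoplasmic reticulum and the Golgi, had 224 and 260 reads (179 ± 15.5 CPM), and its relative Rab2b 33.3 ± 6.71 CPM. Rab1a and Rab1b, which drive transport from the endoplasmic reticulum to the Golgi, lay close to each other. Rab1a had 197 and 189 reads (143 ± 6.91 CPM) and Rab1b 172 and 169 reads (127 ± 3.97 CPM), a ratio of 1.15 and 1.12. The remaining members read in both libraries ranged from Rab33b (48.5 ± 4.85 CPM), which also takes part in autophagy, through Rab33a (29.6 ± 9.93 CPM), Rab34 (25.6 ± 2.14 CPM) and Rab30 (12.2 ± 3.44 CPM) to Rab36 (9.30 ± 2.80 CPM). Rab43 had a single read, in replicate 1.

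Genes of recycling endosomes and exocytic carriers summed to 1479 ± 177 CPM from 11 genes, 24.7% of the Rab total. Rab11b, a regulator of the recycling endosome, led them with 516 reads in replicate 1 and 720 in replicate 2 (388 and 527 CPM, 457 ± 98.3 CPM). Its relative Rab11a had 185 and 234 reads (155 ± 22.8 CPM), so that Rab11b stood 2.79 and 3.08 times above it. Rab14, which acts between the Golgi and endosomes, had 474 and 546 reads (378 ± 30.6 CPM), a range that overlapped that of Rab11b. Rab15, an endosomal Rab known from brain, had 186 and 277 reads (171 ± 44.5 CPM). Rab4a and Rab4b, of the fast recycling route, had 88.6 ± 0.944 and 73.5 ± 3.49 CPM. Lower levels were found for Rab8a (64.3 ± 12.2 CPM) and Rab10 (55.3 ± 3.67 CPM), which deliver carriers to the plasma membrane, and for Rab8b (16.7 ± 1.26 CPM), Rab35 (12.98 ± 0.279 CPM) and Rab13 (5.95 ± 2.21 CPM).

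Genes of regulated secretion summed to 1097 ± 126 CPM from 8 genes, 18.3% of the Rab total. Rab3a, the main Rab of synaptic vesicles, had 827 and 1027 reads (622 and 752 CPM, 687 ± 91.9 CPM). Rab3c had 258 and 296 reads (205 ± 16.0 CPM), Rab3b 103 and 130 reads (86.3 ± 12.53 CPM) and Rab3d 8 and 17 reads (9.23 ± 4.55 CPM). The 4 genes kept this order in both libraries, and their ranges did not overlap. Rab27b, of secretory granules, had 86 and 70 reads (57.9 ± 9.49 CPM), whereas Rab27a had a single read, in replicate 2. Rab26, known from synaptic vesicles and their autophagy, had 57 and 78 reads (49.97 ± 10.1 CPM). Rab37, of secretory granules in other tissues, had 2 reads and 1 read.

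Genes of late endosomes, lysosomes, autophagosomes and lysosome-related organelles summed to 885 ± 98.6 CPM from 12 genes, 14.7% of the Rab total. Rab7, which controls fusion of late endosomes with lysosomes, had 702 and 874 reads (528 and 639.7 CPM, 584 ± 79.2 CPM). Its relative Rab7b had 2 and 3 reads. Rab24, linked to autophagy, had 113 and 141 reads (94.1 ± 12.9 CPM). Rab9, which returns mannose 6-phosphate receptors to the Golgi, had 111 and 134 reads (90.8 ± 10.3 CPM), 4.27 and 4.32 times the level of Rab9b. Rab39b, a Rab of neurons, had 56.8 ± 6.84 CPM, and its relative Rab39 had a single read, in replicate 2. Rab12 and Rab9b were at 21.1 ± 2.22 CPM each. Rab29 (7.43 ± 1.19 CPM), Rab32 (3.72 ± 1.12 CPM) and Rab42 (3.33 ± 0.461 CPM) were low, and Rab38, a Rab of pigment granules, had 1 read, in replicate 1.

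Early endosome genes summed to 324 ± 7.19 CPM from 7 genes, 5.40% of the Rab total. Rab5a, which drives fusion of early endosomes, had 153 and 176 reads (115 and 129 CPM, 122 ± 9.75 CPM). Rab5c had 39 and 76 reads (42.5 ± 18.6 CPM) and Rab5b 34 and 39 reads (27.1 ± 2.11 CPM). Rab31, an endosomal relative of Rab22a, had 162 and 99 reads (122 and 72.5 CPM, 97.1 ± 34.9 CPM). Rab22a (15.6 ± 1.80 CPM), Rab21 (13.4 ± 0.253 CPM) and Rab20 (6.72 ± 4.32 CPM) were lower. Reads without an intron made up 78.9% and 73.9% of the Rab22a reads in replicates 1 and 2. They made up 61.1% and 72.2% for Rab21 and 68.5% and 51.5% for Rab31, and Rab20 had no such read. The group of cilium and other functions summed to 234 ± 10.3 CPM from 4 genes. Rab28, a protein of cilia, had 141 and 159 reads (111 ± 7.34 CPM) and Rab40b, which belongs to a ubiquitin ligase, 126 and 137 reads (97.5 ± 3.92 CPM). Rab23, a regulator of hedgehog signalling, was at 15.6 ± 0.295 CPM, and Rab40c at 9.28 ± 0.7001 CPM.

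Rab17, Rab19, Rab25 and Rab44 had no read in either library. A count of 0 allows up to 3 reads, or 2.26 CPM in replicate 1 and 2.20 CPM in replicate 2. Rab17 and Rab25 are known from epithelia. Dividing CPM by the mean length of the reads' models changed the top of the order: Rab3a came first at 509 CPM per kilobase and Rab6a followed at 309, and 11 of the 15 highest genes were shared with the order by CPM (Spearman rho 0.946 over 55 genes).

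In relation to the libraries, 7 of the 48 Rab genes with at least 10 reads were called different at an adjusted p under 0.05 (two-sided Fisher's exact test of a gene's reads against the rest of the library, p-values adjusted after Benjamini and Hochberg over all 11891 genes tested). Rab6a, Rab3a, Rab7, Rab11b, Rab15 and Rab5c were higher in replicate 2, and only Rab31 of the 7 was higher in replicate 1. Over all genes tested, 5.95% were called: 3.38% for a higher level in replicate 2 and 2.56% for a higher level in replicate 1. The share called depends on the level, and among the genes with a mean of at least 100 CPM it was 5 of 15 Rab genes and 22.1% of 1889 genes. The test covers counting error alone, and in bulk tissue fewer cells of a type and less RNA per cell cannot be told apart. With edgeR's exact test, 0 of 48 Rab genes and 50 of all 11891 genes were called. An unadjusted p under 0.05 by this test was found for 2 of the 48, Rab31 and Rab5c, and for 439 of all genes. That test adds a spread (biological coefficient of variation 16.1%) estimated from the same 2 libraries taken as 1 group. The spread thus holds the differences under test, and this test is no separate check of the calls.

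The differences were small for the abundant genes. In GENCODE M21 coordinates (mm10), Rab6a (ENSMUSG00000030704.14) lies at chr7:100607410-100641268 on the plus strand, Rab3a (ENSMUSG00000031840.12) at chr8:70754679-70758677 on the plus strand, Rab7 (ENSMUSG00000079477.9) at chr6:87999106-88045270 on the minus strand and Rab11b (ENSMUSG00000077450.13) at chr17:33742484-33760530 on the minus strand. Rab15 (ENSMUSG00000021062.15) lies at chr12:76797960-76822908, Rab5c (ENSMUSG00000019173.11) at chr11:100715009-100738215 and Rab31 (ENSMUSG00000056515.9) at chr17:65651729-65772752, each on the minus strand. Rab6a rose from 783 CPM in replicate 1 to 1062 CPM in replicate 2, a log2 ratio of 0.44 (exact 95% interval 0.32 to 0.56, adjusted p = 8.02e-12 by Fisher's exact test). Rab11b rose from 388 to 527 CPM by the same log2 ratio of 0.44 (0.28 to 0.61, Fisher's exact test, adjusted p = 7.25e-06). Rab3a and Rab7 differed less, with log2 ratios of 0.27 (Fisher's exact test, adjusted p = 0.00188) and 0.28 (adjusted p = 0.00483). Rab15, at 139.8 and 203 CPM, had a log2 ratio of 0.54 (Fisher's exact test, adjusted p = 0.00323). Rab5c, at 29.3 and 55.6 CPM, had the widest interval of the 7, with a log2 ratio of 0.92 (0.35 to 1.52, Fisher's exact test, adjusted p = 0.0223). Rab31 fell from 122 to 72.5 CPM, a log2 ratio of -0.75 (-1.12 to -0.38, Fisher's exact test, adjusted p = 0.00164).

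The Rab genes tested were higher in replicate 2 for 31 of 48, 64.6%, beside 53.9% of all genes tested, with a median log2 ratio of 0.16 beside 0.05. Scaling by TMM, a trimmed mean of ratios between libraries, moved all log2 ratios by -0.05, and the same 7 Rab genes were called, 6 higher in replicate 2 and 1 in replicate 1. Over all genes that scaling turned the split from 402 higher in replicate 2 and 305 in replicate 1 to 305 and 352. Taking the reads of the choroid plexus list out of the library totals also left the same 7 Rab genes called. By role, 2 of 11 tested genes of recycling and exocytic carriers were called higher in replicate 2, 1 of 12 of the endoplasmic reticulum and Golgi, 1 of 6 of regulated secretion and 1 of 8 of late endosomes and lysosomes. Early endosome genes had 1 of 7 called in each direction, and 0 of the 4 genes of cilium and other functions were called. Over all genes tested, 3.38% were called higher in replicate 2 and 2.56% in replicate 1. Among those of at least 100 CPM, 22.1% were called in either direction.

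**Figure D2:**
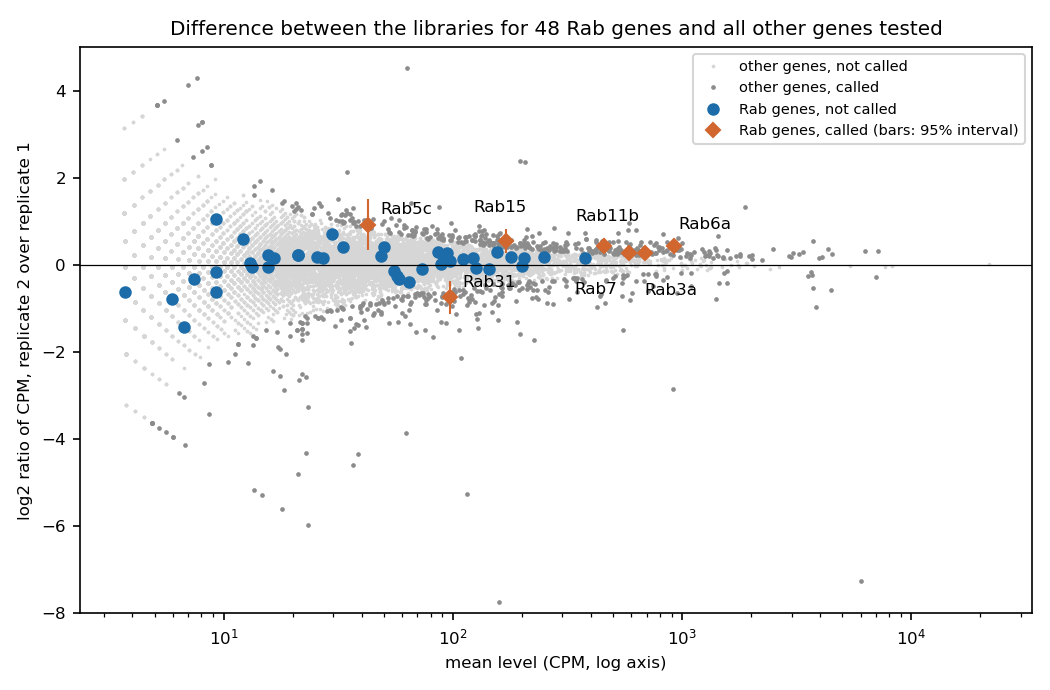
Log2 ratio of CPM, replicate 2 over replicate 1, against the mean level in CPM on a log axis for all genes tested; blue circles are Rab genes not called, orange diamonds the 7 called with exact 95% intervals, and grey points other genes. Of the called Rab genes, 6 lie above 0 and Rab31 below it; 24 genes without a read in 1 library and 1 gene beyond the axis are not shown.

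Genes that run the Rab cycle or bind Rab proteins were given by a list of 98 symbols, of which 97 had reads and 81 were tested. The symbol without reads was Zfyve20, a former symbol of Rbsn, which is also on the list and had reads. In replicate 2, 3 of these were called higher, and none was called higher in replicate 1 (Fisher's exact test). All genes tested gave 3.38% and 2.56% in these directions, and the median log2 ratio of the list was 0.18 beside 0.05. With edgeR's exact test 0 of the 81 were called, and 2 had an unadjusted p under 0.05, beside 50 and 439 of all 11891 genes. Gdi2, an inhibitor that carries GDP-bound Rab proteins in the cytosol, had 403 and 629 reads (303 and 460.4 CPM), a log2 ratio of 0.60 (Fisher's exact test, adjusted p = 4.03e-09). Release factors summed to 362 ± 52.4 CPM, most of it from Rabac1 (302 ± 39.4 CPM), and the geranylgeranyl transferase subunits Rabggta and Rabggtb, which attach the prenyl groups, to 143 ± 7.26 CPM. Exchange factors (26 of 26 read) summed to 537 ± 85.8 CPM, and Dennd5a among them was called, with 75 and 125 reads and a log2 ratio of 0.70 (Fisher's exact test, adjusted p = 0.0195). GTPase-activating proteins (26 of 26 read) summed to 729 ± 48.1 CPM, and Tbc1d1 was called on 3 and 19 reads (Fisher's exact test, adjusted p = 0.0199). Effectors (36 of 37 symbols read) summed to 931 ± 21.3 CPM with 0 of 27 tested genes called, and were led by Rabep1 (111 ± 9.97 CPM), an effector of Rab5 proteins. The Rab kinase gene Lrrk2 was at 7.77 ± 1.43 CPM.

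The transcript models of the Rab reads were compared with those of other coding genes. Models come from TALON, a program that gives each read a class. A read can follow an annotated transcript or only a part of one, it can join annotated splice sites in an unannotated way, it can use a splice site that is itself unannotated, or it can be genomic, with no match to a splice pattern. Annotated transcripts took 75.1% of the Rab reads in replicate 1 (exact 95% interval 74.0 to 76.0) and 79.1% in replicate 2 (78.3 to 79.98), beside 69.2% and 71.5% for other coding genes. Incomplete matches took 8.23% and 8.58%, beside 15.6% and 14.9%, and without Rab6b 8.40% and 6.78%. Unannotated combinations took 1.34% and 1.38%, beside 3.46% and 3.87%. Models with an unannotated splice site were the exception and took more of the Rab reads, 5.17% and 4.92%, beside 2.89% and 2.92%. Without Rab3a these shares were 2.16% and 1.86%. Genomic reads took 10.2% and 5.98% of Rab reads, beside 8.86% and 6.84% for other coding genes, and without Rab6b 8.23% and 6.24%.

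**Figure D3:**
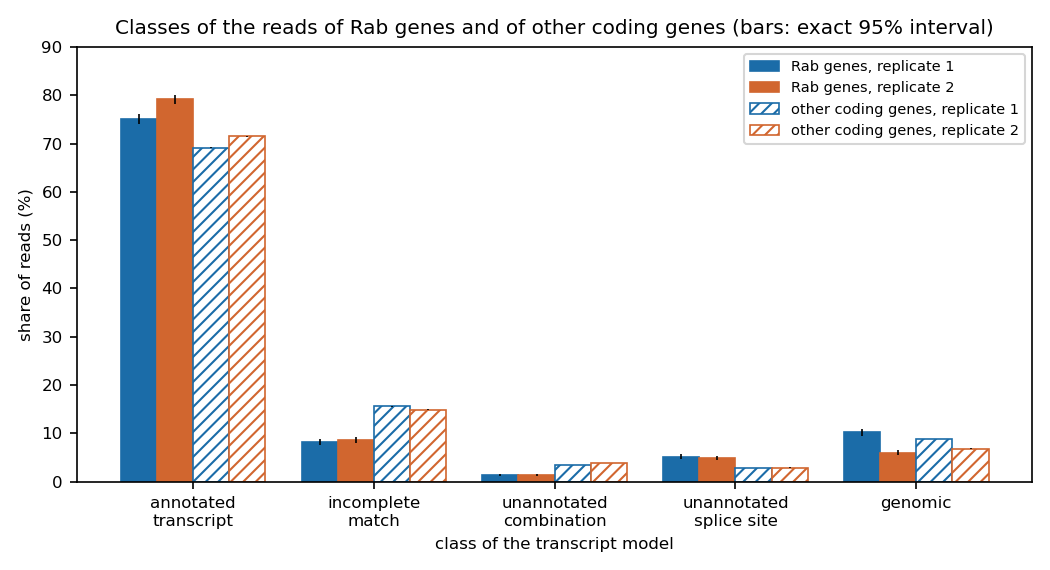
Share of reads in each class of transcript model, in percent, for Rab genes (filled bars) and other coding genes (hatched bars) in replicate 1 (blue) and replicate 2 (orange), with exact 95% intervals. Rab genes show more reads on annotated transcripts (75.1% and 79.1%) and fewer incomplete matches (8.23% and 8.58%) than other coding genes.

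Most Rab genes were read mainly as 1 transcript. In 32 Rab genes with at least 20 reads outside the genomic class in each library, the leading model was an annotated transcript in all 32 and held a median of 88.7% of those reads, beside 70.3% over 6262 genes. By the mean of the libraries it held under 50 percent in 0 of the 32, beside 28.7% of all genes, and in replicate 2 alone that of Rab6b did. Rab39b-201 held 72 of 73 and 60 of 60 reads, Rab9-202 held 102 of 105 and 124 of 129, and Rab11b-201 held 460 of 497 and 659 of 699. By the mean of the libraries the lowest shares were those of Rab3a-201 (57.6% and 59.9%), Rab34-203 (68.8% and 51.4%) and Rab27b-203 (61.0% and 60.3%). Rab34 has a further annotated transcript, Rab34-201, with 5 and 13 reads.

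The share of the leading model was called different between the libraries in 1 of the 32 Rab genes, beside 3.19% of all genes tested, with the same kind of test and adjustment. This was Rab6b, whose transcript Rab6b-201 held 124 of 140 reads in replicate 1 (88.6%) and 173 of 363 in replicate 2 (47.7%, adjusted p = 1.20e-15 by Fisher's exact test). The gene's reads without an intron were classed differently in the libraries: 170 were genomic in replicate 1, and 171 were incomplete matches in replicate 2 against 2 in replicate 1. Models without an intron were pooled by gene and class. The deposited span listed for each of these 2 pools ended at the annotated end of the gene. Among spliced reads alone Rab6b-201 differed by 0.90 percentage points and was not called. In that comparison, added after seeing the data, Rab2a was called, 1 of 32 Rab genes tested, beside 29 of 5848 genes (0.496%). Rab2a-201 held 127 of 193 spliced reads in replicate 1 (65.8%) and 177 of 214 in replicate 2 (82.7%, adjusted p = 0.0306 by Fisher's exact test). Its other spliced models with at least 8 reads were incomplete matches of 2 to 7 exons.

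Spliced models absent from the annotation and read at least 2 times in each library numbered 23, in 14 Rab genes, with 332 and 397 reads (4.503% of Rab reads). Rab3a held most of these reads, 252 and 297 on 6 models. Its main unannotated model of 5 exons had 225 and 264 reads, 27.2% and 25.7% of the gene's reads. In this model the first intron, chr8:70754870-70755855 (plus strand, mm10), begins 6 bases downstream of the annotated donor site and ends at the annotated acceptor. It was found in 235 of 725 reads spliced at that acceptor in replicate 1 (32.4%, exact 95% interval 29.0 to 36.0) and in 269 of 907 in replicate 2 (29.7%, 26.7 to 32.7), so that the intervals of the libraries overlapped. The donor lies in the 5′ UTR, because the annotated coding sequence of Rab3a-201 begins in the second exon, and the use of this site leaves the coding sequence as annotated. A second unannotated donor lies just past the annotated end of the second exon (intron chr8:70756086-70756446). It had 20 reads in each library, 2.60% and 2.09% of the reads at its acceptor. Its effect on the coding sequence was not examined. Rab7 had 3 unannotated models (17 and 31 reads) and Rab27b 1 (15 and 14 reads), with an unannotated intron that took 20.3% and 24.6% of the reads spliced at its acceptor.

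**Figure D4:**
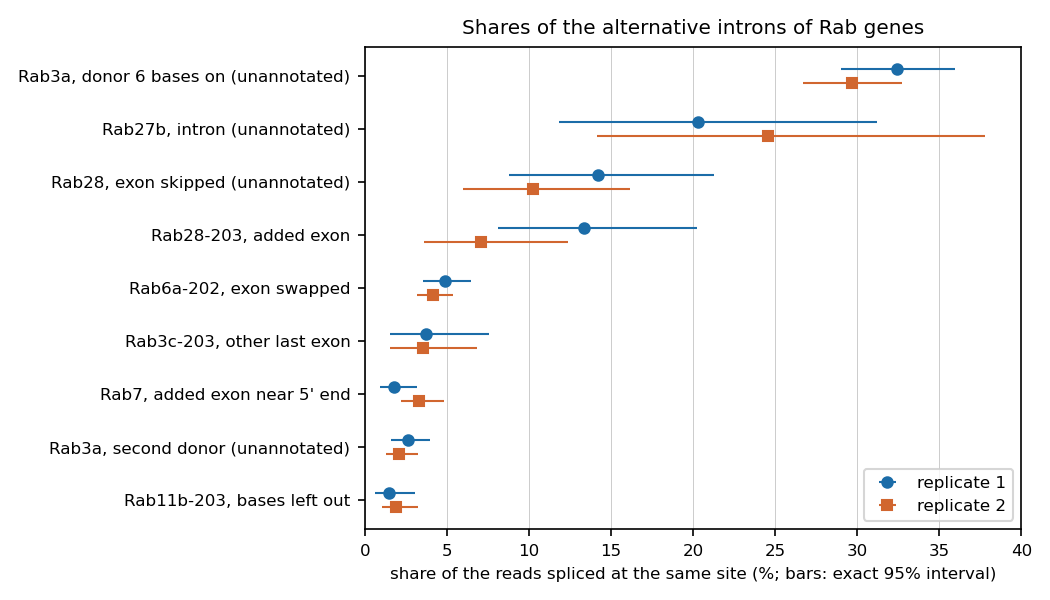
Share of an alternative intron among the reads spliced at the same site, in percent with exact 95% intervals, for 9 introns of Rab genes; circles are replicate 1 and squares replicate 2. The unannotated Rab3a donor (32.4% and 29.7%) and the unannotated Rab27b intron (20.3% and 24.6%) stand highest, and in each of the 9 the intervals of the libraries overlap.

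Rab6a has a pair of exons that replace each other, each of 106 bases, and they are shown because they change the coding sequence and not its length. Sequences are from GENCODE M21 transcripts (mm10, plus strand), and capitals mark the bases that differ.
Rab6a-201 exon, chr7:100629838-100629943: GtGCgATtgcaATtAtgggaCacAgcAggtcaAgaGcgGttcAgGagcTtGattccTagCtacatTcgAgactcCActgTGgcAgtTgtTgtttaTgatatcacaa
Rab6a-202 exon, chr7:100629666-100629771: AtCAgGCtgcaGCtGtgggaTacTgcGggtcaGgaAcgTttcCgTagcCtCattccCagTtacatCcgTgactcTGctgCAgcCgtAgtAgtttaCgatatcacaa
The pair differed at 30 bases (71.7% identity), and 22 of these fell on the last base of a codon. The intron into the Rab6a-202 exon was found in 45 of 928 reads in replicate 1 (4.85%, exact 95% interval 3.56 to 6.44) and in 56 of 1350 in replicate 2 (4.15%, 3.15 to 5.35). The exon of Rab6a-201 was the more used one in both libraries.

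Rab28 had 2 alternatives. An unannotated intron, chr5:41687851-41703437 (minus strand, mm10), left out an exon of 89 bases, which is not a multiple of 3. It was found in 19 of 134 reads in replicate 1 (14.2%, exact 95% interval 8.76 to 21.3) and in 16 of 156 in replicate 2 (10.3%, 5.98 to 16.1). The exon left out is shown in the direction of the gene.
Rab28 exon, chr5:41698390-41698478: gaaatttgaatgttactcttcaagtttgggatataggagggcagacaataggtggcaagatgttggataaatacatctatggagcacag
The annotated transcript Rab28-203 has an added exon near its end, read in 18 of 135 reads (13.3%, 8.10 to 20.3) and 11 of 155 (7.10%, 3.60 to 12.3). This gives it a different coding end, with a cysteine codon 4 positions from the end as in Rab28-201.
Rab28-201 end: cggagctccatgTGTgcagtgcag
Rab28-203 end: cagagtagagtcTGTtcagtacag
Capitals mark the cysteine codon, and coding length was 663 bases in Rab28-201 and 660 in Rab28-203.

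Rab11b-203 leaves out 75 coding bases, a multiple of 3, at the start of an internal exon. The intron that does so was found in 7 of 474 reads (1.48%) in replicate 1 and 13 of 679 (1.91%) in replicate 2.
Rab11b bases left out, chr17:33749903-33749977, minus strand: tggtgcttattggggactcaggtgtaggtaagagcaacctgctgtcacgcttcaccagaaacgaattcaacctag
Rab7 had an added annotated exon near its start in 11 of 613 reads (1.79%) and 26 of 784 (3.32%), and Rab3c-203 another last exon in 7 of 187 reads (3.74%) and 8 of 227 (3.52%). In all, 16 alternative introns with at least 10 reads were found in 7 Rab genes, and 7 of them were unannotated. Of the 558 introns read in Rab genes, 240 were unannotated, but these held 1.37% of the intron reads.

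Reads without an intron varied strongly among Rab genes. In the 37 Rab genes that reached 20 reads per library their median share was 8.92%, beside 6.35% over 6892 coding genes, and it was above 50 percent in 3 of the 37 (8.11%) beside 12.01% of coding genes. Rab24, Rab4a, Rab4b, Rab33a and Rab34 had 1 such read at most in either library. Among the 37 the highest shares were those of Rab31 (68.5% and 51.5%), Rab8b (47.6% and 70.8%) and Rab6b (55.3% and 47.1%). Rab5b (52.9% and 46.2%) and Rab10 (44.2% and 38.9%) followed. Rab22a and Rab21, which did not reach 20 reads in each library, had 78.9% and 73.9%, and 61.1% and 72.2%. Across the 37 genes the share followed the length of the annotated last exon (Spearman rho 0.690) more than the level (rho -0.16). Both are descriptions across genes of the same libraries, and genes are not independent replicates. The share was higher in replicate 1 in 23 of 37 genes.

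**Figure D5:**
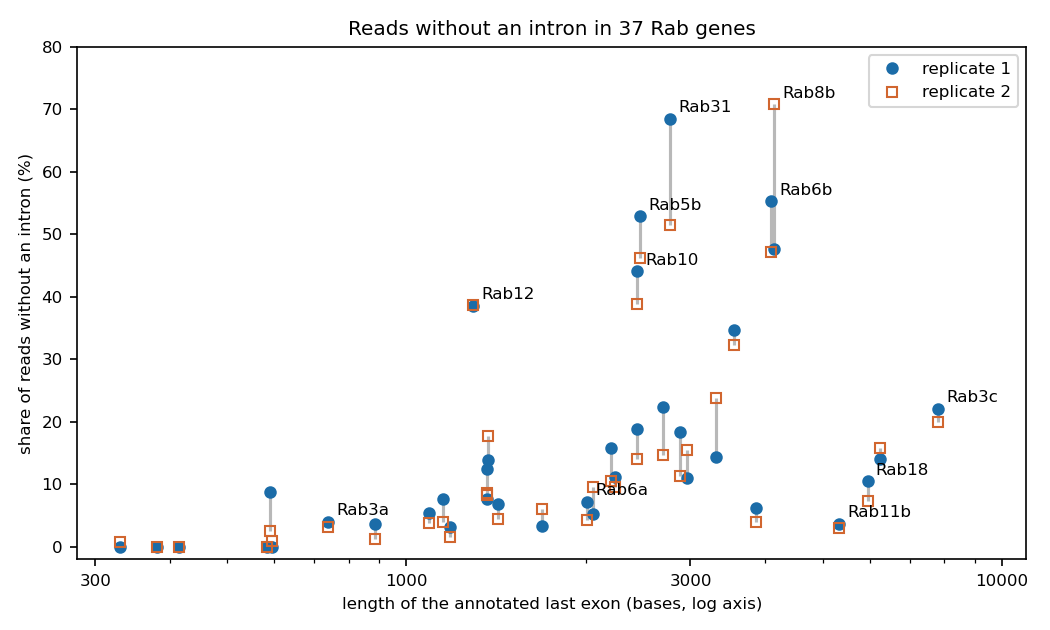
Share of reads without an intron, in percent, against the length of the annotated last exon in bases on a log axis for 37 Rab genes; filled circles are replicate 1, open squares replicate 2, and grey lines join them. Genes with last exons under 1000 bases reach 8.77% at most, and Rab31, Rab8b and Rab6b reach the highest shares.

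Rab31 was the gene whose difference between the libraries lay in these reads. It had 111 genomic reads in replicate 1 and 51 in replicate 2, and 51 and 48 spliced reads (38.3 and 35.1 CPM). Among spliced reads alone its log2 ratio was -0.13 and it was not called (Fisher's exact test, adjusted p = 0.949). The other 6 Rab genes were again called higher in replicate 2. Of all 525 genes called among spliced reads, 396 (75.4%) were higher in replicate 2, beside 56.9% of those called among all reads. Genomic reads were also more frequent in replicate 1 in other coding genes, as given above, and their part in the Rab31 difference was not tested.

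Some levels rest on regions shared with other genes. Rab4b shares 82.9% of its 25-base words with Gm21983, an annotated gene on the same strand that took 3 reads in replicate 1 and none in replicate 2. Gm20388, which overlaps Rab4a on the same strand, took 64 and 40 reads, so reads of this pair could have been divided between them. Rab7 shares 19.4% of its words with Rab7-ps1 and Rab9 18.5% with Rab9b-ps1, pseudogenes with no reads, and Rab11b shares 9.94% with Rab11b-ps2, which had 3 reads in replicate 2. On the opposite strand, Prelid1 overlaps Rab24, Mpv17l2 overlaps Rab3a and Mrpl48 overlaps Rab6a, and whether the library preparation kept strand is not given in the sources used here.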

How the data were processed

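Long reads of 2 hippocampus libraries were analysed from the tables deposited by the authors. The deposited count column holds raw counts of reads per transcript model, with no normalization. Models were made with TALON per the file headers, on mm10 with GENCODE M21 per the deposited description files. No source used here gives the aligner, the filters or the strand setting. The other columns used were the deposited number of exons, model length and exon coordinates.

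A gene's count was the sum over its models, whatever their class. The total for CPM was all reads of a library, 1330153 and 1366252, so a count of 0 allows 2.26 and 2.20 CPM. Genes with at least 10 reads over both libraries were tested by a two-sided Fisher's exact test (scipy 1.17.1) with Benjamini-Hochberg adjustment over all genes at 0.05. edgeR 4.0.16 gave TMM sizes, a common dispersion from the 2 libraries and its exact test; DESeq2 1.42.0 gave size factors. The share of the leading model was tested the same way in genes with at least 20 reads outside the genomic class in each library. Spliced models were matched by chromosome, strand and introns. Unannotated models of 1 exon were pooled by gene and class, whatever their coordinates, and annotated ones were matched by transcript. Unannotated spliced models needed 2 reads in each library. An alternative intron shares 1 end with another and needed 10 reads in all. Intervals are exact Clopper-Pearson 95% intervals. The tests were run on simulated counts with planted changes and counting error alone. Those counts lacked the spread between the real libraries, so they cannot show how the tests behave with it. The planned test of class shares summed over members was replaced by intervals.
Alternatives were other scalings, read minimums and classes of reads, edgeR's exact test and leaving out a library; spliced models alone were added after seeing the data.

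Genes named in full were the 15 of highest mean CPM, those called in either test, those with a leading model under 50 percent (none), the 3 with most reads on unannotated models and the 3 highest of each role. Members, role groups and lists were chosen with earlier results of these data known. A member of the Rab cycle list is not reported here.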

Additional observations from a re-analysis of the deposited data

Results flagged for a closer look

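Reads on unannotated loci opposite Rab genes lie outside the gene counts of the report and exceeded the 3 reads that a count of 0 allows in both libraries at 5 genes. At Rab31 there were 271 such reads over both libraries, 157 in replicate 1 and 114 in replicate 2, beside 162 and 99 reads on Rab31 itself. They had no intron, and 157 and 113 of them lay on 1 locus in each library. The deposited span of that locus began at the same base, chr17:65651729 (mm10), in both libraries and was 2376 and 2380 bases long, within the last exon of Rab31 (2775 bases). The pooled genomic reads of Rab31 on its own strand include a model with a span of 2380 bases that begins at the same base. At Rab6a there were 25 such reads, 18 in replicate 1 and 7 in replicate 2, beside 1042 and 1451 reads on the gene. At Rab1a there were 16, 11 and 5 by library, and at Rab21 there were 14, 9 and 5 by library beside 18 and 18 reads on Rab21. At Rab42 there were 9, 4 in replicate 1 and 5 in replicate 2, beside 4 and 5 reads on the gene. No control samples exist in this series.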

How the results depend on the processing

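The count of Rab genes called between the libraries was 7 with TMM library sizes, with DESeq2 size factors, without the choroid plexus reads in the totals and with a minimum of 1 or 20 reads, and the same 7 genes were shared each time. The first 3 of these settings called 7 of 48 Rab genes, beside 657, 656 and 675 of all 11891 genes tested. A minimum of 1 read gave 7 of 55 Rab genes, beside 602 of 18595 genes. A minimum of 20 reads gave 7 of 45 Rab genes, beside 702 of 9912 genes. Without genomic and incomplete reads 6 of 42 Rab genes were called, beside 604 of 9143 genes. With spliced models alone, a setting added after seeing the data, 6 of 47 Rab genes were called, beside 525 of 10090 genes. Rab31 was the gene lost in both. With edgeR's exact test, whose spread came from the same 2 libraries, 0 of 48 Rab genes and 50 of all 11891 genes were called. An unadjusted p under 0.05 by that test was found for 2 Rab genes and for 439 of all genes. The summed Rab level was 5018 CPM without genomic and incomplete reads, 4634 CPM with annotated models only and 5316 CPM with spliced models only, and leaving out a replicate gave 5538 to 6459 CPM; Rab6a came first in each of these. Single levels moved by over 1.5 times for Rab6b (114 CPM without genomic and incomplete reads, 110 CPM with annotated models only and 123 CPM with spliced models only), Rab2a (117 and 113 CPM in the first 2 of these) and Rab3a (430.3 CPM with annotated models only) among the 15 highest genes. The number of Rab genes with a called leading model share was 0 with annotated models only (1 at an unadjusted p under 0.05, Fisher's exact test), and 1 in the other 4 settings: Rab6b with a minimum of 10 or 50 reads, Rab6a with genomic reads counted, Rab2a with spliced models only. Over all genes tested, the share called was 0.154% with annotated models only and 0.496% with spliced models only. It was 2.60% and 4.08% with a minimum of 10 and 50 reads, and 3.82% with genomic reads counted. For Rab6b the difference turned to 7.79 percentage points in favour of replicate 2 with genomic reads counted and to 0.90 with spliced models only. The number of unannotated models was 52, 12 and 7 when 1, 3 or 5 reads were needed in each library. The cause of these changes was not tested, apart from the classes of the Rab6b reads given above. No paired analysis was possible because there is 1 group. Depth limits the lower members: 7 of the 55 had under 10 reads in all and were not tested.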

Other observations

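Related Rab genes differed in how close their levels were. Besides the pairs in the report, Rab2a stood 5.89 times above Rab2b in replicate 1 and 5.0 times in replicate 2, with coding sequences identical at 74.2% of aligned bases. Rab3a stood 3.21 and 3.47 times above Rab3c (73.2% identity). Rab40b stood 9.69 and 11.4 times above Rab40c (74.5% identity). Rab8a stood 4.62 and 3.17 times above Rab8b (77.4% identity). Rab4a and Rab4b were nearer to each other, at 1.16 and 1.26 times (73.2% identity). Among the Rab5 genes the ratio of Rab5a to Rab5b was 4.50 and 4.51, whereas that of Rab5a to Rab5c was 3.92 in replicate 1 and 2.32 in replicate 2. With spliced models only, the ratio was 8.38 and 7.67 for Rab5a to Rab5b and 8.27 and 10.4 for Rab8a to Rab8b, and Rab40c was at 5.55 CPM beside 95.3 CPM for Rab40b. These ratios were not tested, and each carries the counting error of both genes.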
